A study of Homo sapiens with 12 samples.

Results

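The comparison described here is between MDA-MB-231 cells transfected with the second of the study's YAP/TAZ siRNA mixes and the same cells transfected with a control siRNA. It takes in the 4 arrays titled siYAP/TAZ#2 and the 4 arrays titled siControl, replicas A to D of each, which are 8 of the 12 arrays of the series, and it covers all 13227 genes that passed a filter on low signal. MDA-MB-231 is an established line from a human breast cancer of the triple-negative kind, and it is the only line used. Each array measured the total RNA of 1 of 4 biological replicates of its group on an Affymetrix HG-U133 Plus 2.0 array, which reads transcripts through sets of short probes placed mostly near the 3′ end. The 4 remaining arrays hold cells given another YAP/TAZ mix, called mix 1 here; they entered the model and are used only for the difference between the mixes.

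All 3 groups were seeded sparsely on day 1 in serum-containing medium, received siRNA at 33 nM with a lipid reagent on day 2, had their medium renewed on day 3 and were harvested on day 4. The controls therefore also carried an siRNA and the reagent, and no untransfected culture is part of the comparison. Mix 2 was aimed at YAP and TAZ together, so the values below do not separate one gene from the other, and within this comparison the loss of both transcripts and any other effect of the mix cannot be told apart. The siRNA sequences are not used here.

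YAP (gene symbol YAP1) and TAZ (gene symbol WWTR1) are related transcriptional coactivators without a DNA-binding domain of their own. They enter the nucleus when the Hippo kinases, MST and LATS, are inactive, and act there chiefly through the TEAD family of DNA-binding factors; phosphorylation by LATS keeps them in the cytoplasm or marks them for degradation. In breast cancer cells they are known for promoting proliferation, and ANKRD1, CCN1 and CCN2 are their standard readout genes.

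Values are log2 intensities after robust multi-array averaging (RMA), with 1 probe set per gene. A change is the mean of the mix 2 arrays minus the mean of the control arrays, given as log2 with the standard error (SE) of the model, and a gene is said to have risen or fallen where limma's moderated test gave a Benjamini-Hochberg adjusted p under 0.05 over all 13227 genes. Most genes met that threshold: 9070 genes, or 68.6% of those tested, of which 4848 (36.7%) were higher and 4222 (31.9%) were lower with mix 2. Of the rest, 234 had an unadjusted p under 0.05. The median change over all genes was 0.03, and the middle 50% of genes lay between -0.34 and 0.43. Changes of at least 2-fold were fewer, with 1202 genes higher (9.09%) and 1237 lower (9.35%), and 4229 of the called genes moved by less than 1.5-fold. At 8-fold or more there were 56 genes higher and 59 lower. Whether called or not, 4475 of all genes tested (33.8%) had every mix 2 array above every control array. For 4097 (31%) every mix 2 array lay below every control array. With so large a background, lists of genes are described below by their counts and medians, to be read against these figures.

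The share of called genes differed with signal: 29.8% of genes with a mean level under 6 log2 were called, 61.0% of those between 6 and 8, 82.1% of those between 8 and 10, 81.4% of those between 10 and 12 and 74.3% of those above 12. It was thus lowest at the weakest signal and highest between 8 and 12. The share was 70.3% among 12234 protein-coding genes and 46% among 745 long non-coding RNAs, of which 220 rose and 123 fell. Where a called gene had further probe sets that were themselves called, these mostly moved the same way: of 4850 called genes with another probe set, 3746 had at least 1 moving in the same direction and 360 had 1 moving in the opposite direction.

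**Figure D1:**
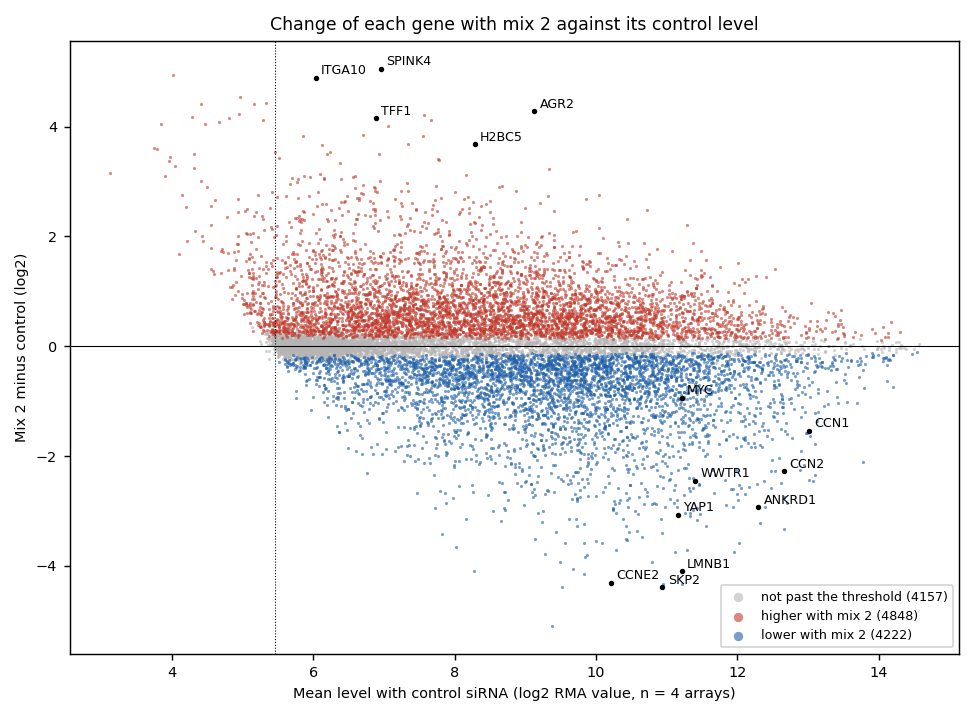
Each point is 1 of the 13227 genes. The x axis is the mean RMA level with control siRNA in log2, over 4 arrays, with the filter at the dotted line, and the y axis is the log2 change, mix 2 minus control siRNA; coloured points passed the adjusted p threshold of 0.05. Called genes lie on both sides of 0, 4848 above and 4222 below, and the labelled genes include SPINK4 at 5.06 and SKP2 at -4.39.

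RMA sets all arrays to 1 distribution, so their medians (5.69 to 5.75 in the controls and 5.73 to 5.74 with mix 2) say nothing of the RNA per cell, and a shift of all transcripts in 1 direction would not be visible. The 3′ to 5′ difference of the GAPDH control probes averaged 0.39 in the controls and 0.38 with mix 2 (two-sided exact permutation p = 0.8286), and that of ACTB averaged 1.70 and 1.53 (exact permutation p = 0.3429). Mix 2 replicate D stood apart from its group: its differences from the mean of the other 3 arrays had an SD of 0.21 over all genes, against 0.13 to 0.14 for the same measure in replicates A to C. Without it 9110 genes were called, 4937 higher and 4173 lower. The median of a gene list moved by at most 0.15 without it, in the list of the Hippo pathway.

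Both targeted transcripts were lower in every mix 2 array. YAP1 measured 11.26, 11.19, 11.03 and 11.16 in control replicates A, B, C and D, and 8.15, 7.98, 8.19 and 8.04 in mix 2 replicates A, B, C and D. The change was -3.07 ± 0.14 (SE), with an adjusted p of 4.55e-11. WWTR1 measured 11.49, 11.45, 11.27 and 11.39 in the controls and 9.02, 8.83, 9.07 and 8.87 with mix 2, a change of -2.45 ± 0.10 with an adjusted p of 1.76e-11. In neither gene did the groups come near each other. The further probe sets of YAP1 fell by 3.57 and 2.86, and those of WWTR1 fell by 2.04 and 1.32; the largest fall of YAP1 took its probe set from 8.98 to 5.42, below the filter for low signal. Against mix 1, YAP1 was not called as different (-0.06, adjusted p = 0.73) and WWTR1 was not called as different (-0.12, adjusted p = 0.344).

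Genes known as YAP/TAZ targets moved in both directions. Of 21 listed targets that passed the filter, 12 fell and 6 rose, with a median change of -0.56. ANKRD1, which encodes an ankyrin-repeat protein induced by YAP, measured 12.28, 12.36, 12.27 and 12.27 in the controls and 9.44, 9.38, 9.43 and 9.20 with mix 2. CCN2, a secreted matricellular protein, measured 12.65, 12.53, 12.72 and 12.73 in the controls and 10.42, 10.28, 10.40 and 10.41 with mix 2. The arrays of the groups did not overlap for either gene, and the controls spread by far less than the distance between the groups. CRIM1, a transmembrane regulator of BMP signalling, fell by 1.63 ± 0.07, and AMOTL2, a junction protein that binds YAP and is itself a target, fell by 1.63 ± 0.07. CCN1 fell by 1.54, F3 (tissue factor) by 1.22, FJX1 by 1.14 and IGFBP3 by 1.13. The 6 that rose were RBMS3 (0.96), DOCK5 (0.89), CCDC80 (0.71), PTPN14 (0.43), TGFB2 (0.31) and MYOF (0.20). NT5E, ARHGEF17 and LATS2 did not pass the test, with changes of -0.09, -0.04 and 0.02. Averaged over their probe sets, NT5E (-0.66) and LATS2 (-0.13) were called lower, and MYOF lost its call without shared probe sets (0.03).

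The promoters of ANKRD1 and CCN2 are shown because these genes had the largest falls among the listed targets and both hold the core TEAD motif GGAATG, which was searched on both strands from 250 bases before to 50 bases after the annotated start. The sequences are RefSeq's, build GRCh38.p14, on the gene's own strand and with the motif in capitals.
ANKRD1, chr10:90921180-90921337, minus strand: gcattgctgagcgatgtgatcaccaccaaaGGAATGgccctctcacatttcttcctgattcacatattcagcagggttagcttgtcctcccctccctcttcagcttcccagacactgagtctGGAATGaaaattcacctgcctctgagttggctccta
CCN2, chr6:131951432-131951571, minus strand: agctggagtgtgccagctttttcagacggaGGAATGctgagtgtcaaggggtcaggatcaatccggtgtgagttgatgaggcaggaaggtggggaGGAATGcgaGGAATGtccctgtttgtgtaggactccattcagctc
Counting -1 as the base just before the annotated start, ANKRD1 holds 2 copies, at positions -220 and -128, and CCN2 holds 3, between -169 and -95. The motif was in 3 of 8 promoters of listed targets that fell (37.5%), and in 10.976% of the 10669 promoters available for tested genes. It was in 10.748% of the promoters of all genes that fell and in 11.05% of those of all genes that rose.

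The mixes differed for most of these targets. 16 of the 21 were higher with mix 2 than with mix 1 and 4 were lower, where 28.7% and 25% of all genes tested were higher and lower between the mixes. ANKRD1 measured 7.07, 6.60, 6.97 and 6.79 in mix 1 replicates A to D, and lay 2.51 higher with mix 2 (adjusted p = 3.14e-11). CCN2 lay 1.76 higher with mix 2 than with mix 1 (adjusted p = 6.81e-10). The 4 that were lower with mix 2 were CRIM1 (-0.67), IGFBP3 (-0.36), GADD45A (-0.39) and NT5E (-0.79).

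Genes of the Hippo pathway moved in both directions. 13 of 29 genes fell, 7 rose, and the median was -0.12; without replicate D of mix 2 the median was -0.27, with 14 lower and 9 higher. Among upstream members, WWC1 (KIBRA) fell by 1.61 ± 0.08, MOB1B, an activator of LATS kinases, by 1.56 ± 0.08, NF2 (Merlin) by 1.25 and the kinase LATS1 by 1.11. MAP4K4, a kinase that can act on LATS, rose by 1.28 ± 0.07, the scaffold SAV1 by 0.81 ± 0.10 and FRMD6 by 0.51 ± 0.06. Of the DNA-binding partners, TEAD4 fell by 0.52, and TEAD1, TEAD2 and TEAD3 lay within 0.03 of the controls without passing the test.

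Genes were ranked where their mean was above the filter in both groups and their arrays did not overlap. Among these, and on the probe set used for each gene, the largest fall was that of SKP2. SKP2, the substrate receptor of the ubiquitin ligase that degrades p27, fell from 10.94, 10.94, 10.94 and 10.94 in the controls to 6.50, 6.58, 6.52 and 6.60 with mix 2 (-4.39 ± 0.06, adjusted p = 4.52e-15). RAD51AP1, a DNA repair protein, fell by 4.33 ± 0.12, and KIF23, a motor of the central spindle, by 4.32 ± 0.10. Arrays that do not overlap were a condition of this ranking and are no further result, also where its genes are named again below. In these bulk cultures, fewer cells of a kind, such as cells in 1 phase of the cycle, and less RNA per cell cannot be told apart. Next came CCNE2 (cyclin E2, -4.31), KIF15 (a spindle kinesin, -4.15), LMNB1 (lamin B1, -4.10), the phosphatase CDC25A (-4.06), BRI3BP (-3.93) and CDC45 of the replicative helicase (-3.92). PRIM1 (primase, -3.85), DDIAS (-3.81), the exonuclease EXO1 (-3.79), DTL (-3.75), the kinase PBK (-3.74) and CDCA5 (sororin, -3.71) completed the 15 largest falls. SKP2 was lower with mix 2 than with mix 1 by 1.45 (adjusted p = 2.01e-10).

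On the same terms, SPINK4 and ITGA10 rose most. SPINK4, a protease inhibitor of secretory epithelium, rose from 7.05, 7.04, 6.80 and 6.94 in the controls to 12.03, 12.05, 12.11 and 11.86 with mix 2 (5.06 ± 0.08, adjusted p = 5.77e-15). ITGA10, a collagen-binding integrin subunit, rose from 6.09, 5.72, 6.17 and 6.16 to 10.85, 11.10, 10.94 and 10.78 (4.88 ± 0.11). The mix 2 arrays lay well above all control arrays for both genes. AGR2, PRSS2 (a trypsinogen), TFF1, CST4 and CYP1B1 (a cytochrome P450) followed with rises of 4.28, 4.21, 4.15, 4.12 and 4.01. TFF3, LTBP1, RCAN2, GBP2, H2BC5, CST2, SLITRK6 and ABCC3 rose by between 3.51 and 3.84. Cystatin genes such as CST1, CST2 and CST4 are near-identical copies, so their probe sets may share signal, and the same holds for the histone gene H2BC5.

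**Figure D2:**
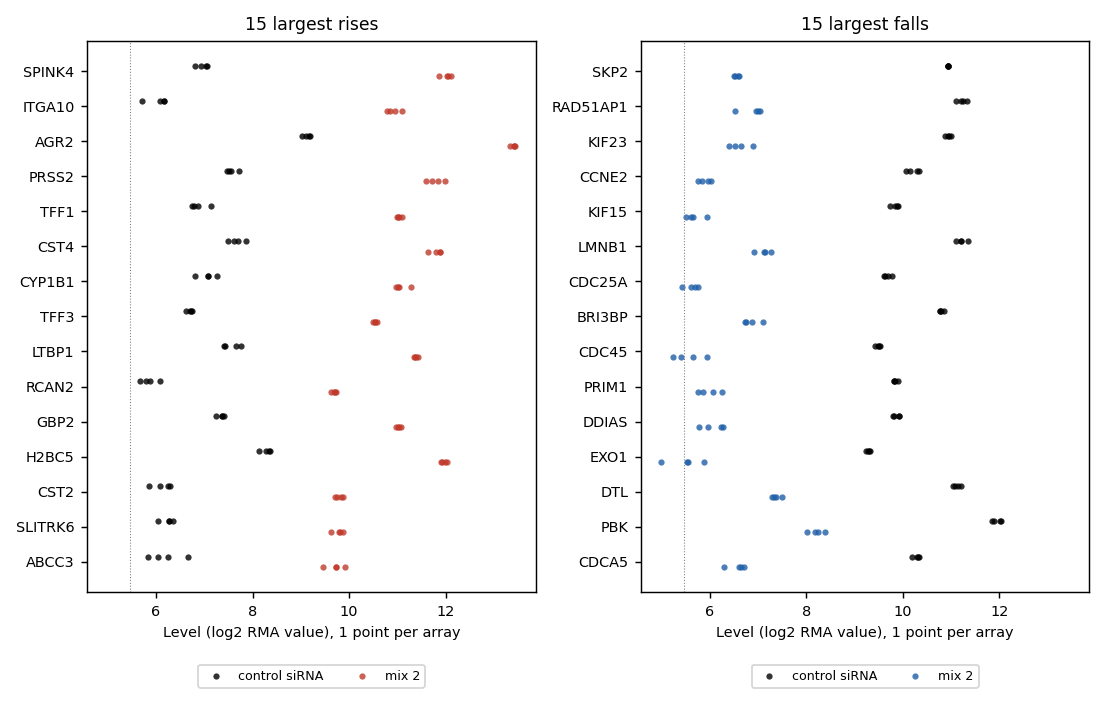
The points are single arrays of control siRNA and mix 2 for the 15 genes with the largest rises and the 15 with the largest falls; the x axis is the RMA level in log2 and the dotted line marks the filter. Groups that do not overlap were a condition for choosing these 30 genes. Their changes ran from 3.51 to 5.06 among the rises and from -4.39 to -3.71 among the falls.

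DNA replication genes were lower almost throughout. Of 58 genes of origins and forks, 55 fell and 2 rose, with a median of -1.92 against 0.03 for all genes. CDC45 measured 9.49, 9.53, 9.50 and 9.43 in the controls and 5.41, 5.25, 5.95 and 5.65 with mix 2. PRIM1 measured 9.82, 9.83, 9.90 and 9.82 in the controls and 6.26, 5.87, 6.08 and 5.77 with mix 2. Every mix 2 array lay below every control array in both. CDC6, which loads the helicase at origins, fell by 3.59 ± 0.12. The 2 that rose were POLD4, the small subunit of DNA polymerase delta (2.48 ± 0.10, adjusted p = 2.83e-11), and ORC4 (0.25), whose other probe sets move the other way: its change was -0.17 as a mean of its probe sets.

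Nucleotide supply and homologous recombination followed. 23 of 26 genes of nucleotide synthesis fell (median -1.38), among them RRM2 of ribonucleotide reductase (-3.22 ± 0.08), DCK (deoxycytidine kinase, -3.00) and TYMS (thymidylate synthase, -2.46). A further probe set of RRM2 fell from 12.66 to 6.94 (-5.72), a larger fall than that of SKP2. SAMHD1, an enzyme that breaks down deoxynucleotides, rose by 0.51 ± 0.06, with IMPDH1 (0.64) and CTPS2 (0.81). 26 of 34 recombination and repair genes fell (median -0.89), led by RAD51AP1, EXO1 (-3.79) and the helicase BLM (-3.01); RAD50, SWI5 and SFR1 rose by 0.77, 1.06 and 0.18, and the call of SFR1 was lost in 5 of the 8 fits without 1 control or mix 2 array.

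The E2F and DREAM regulators and the cyclins were lower too. Of 16 cyclin and CDC25 genes, 13 fell and none rose at this threshold, with a median of -1.76. CCNE2 measured 10.33, 10.14, 10.07 and 10.30 in the controls and 6.03, 5.76, 5.96 and 5.84 with mix 2. CDC25A measured 9.63, 9.78, 9.69 and 9.61 in the controls and 5.61, 5.76, 5.69 and 5.42 with mix 2. Both groups were tight and did not overlap. CCNA2 (cyclin A2) fell by 2.86 ± 0.11. Of 19 E2F and DREAM genes, 14 fell (median -1.30): E2F8, a repressive E2F, by 3.15 ± 0.11, with E2F5 at -2.66 and LIN9 at -2.52. RBL2 (p130), the pocket protein of the DREAM repressor complex, was the 1 that rose, by 0.64 ± 0.10. CDKN1B (p27), an inhibitor of cyclin-dependent kinases and a substrate of the SKP2 ligase, rose by 1.48 ± 0.11 (adjusted p = 1.73e-08), while the SKP2 cofactors CKS1B and CKS2 fell by 1.91 and 1.12. CDKN1A (p21) and CDKN2A did not pass the test, with changes of 0.09 and -0.04. CDKN1C also rose, by 0.245, but was not called as a mean of its probe sets (0.05). Of the 8 tested genes in the list of CDK inhibitors and SKP2, 2 rose and 4 fell. The median of that list was -0.39, and 0.86 without shared probe sets.

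The machinery of mitosis fell furthest as a group. All 21 tested genes of the spindle and cytokinesis fell, with a median of -2.57, and so did 50 of 53 genes of the kinetochore, checkpoint and condensin (median -2.13). KIF23 measured 11, 10.96, 10.87 and 10.94 in the controls and 6.90, 6.40, 6.66 and 6.52 with mix 2. KIF15 measured 9.88, 9.74, 9.83 and 9.90 in the controls and 5.95, 5.51, 5.66 and 5.62 with mix 2. The mix 2 arrays of both genes lay together, far below the controls. KIF14 fell by 3.36 ± 0.12, SKA1 and SPC25 of the outer kinetochore by 3.67 and 3.59, and the condensin subunit NCAPH by 3.51. The 2 kinetochore genes that rose were MAD1L1, a checkpoint protein (0.44 ± 0.11), and NSL1 (0.32), which lay at -0.18 when its probe sets shared between transcripts were left out. 19 of the 21 spindle genes were lower with mix 2 than with mix 1, and none was higher. Between the mixes, 25% of all genes tested were lower and 28.7% higher.

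Motifs were counted in the promoters of the replication and mitosis lists. The letters searched were TTTGAA for the CHR element of genes expressed in mitosis, TTTGGCGC or GGCGGGAA for E2F sites and GATTGG for the CCAAT box bound by NF-Y, on both strands. The genes shown are those with large falls and a match before the start; capitals mark the E2F letters in RAD51AP1, PRIM1 and CDC25A and the CHR letters in KIF23 and KIF15.
RAD51AP1, chr12:4538838-4538889, plus strand: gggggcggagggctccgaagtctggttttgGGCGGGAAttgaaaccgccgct
PRIM1, chr12:56752324-56752377, minus strand: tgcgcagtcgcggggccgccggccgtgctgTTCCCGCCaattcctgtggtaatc
CDC25A, chr3:48188424-48188491, minus strand: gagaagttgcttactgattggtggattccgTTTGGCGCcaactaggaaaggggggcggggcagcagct
KIF23, chr15:69414264-69414329, plus strand: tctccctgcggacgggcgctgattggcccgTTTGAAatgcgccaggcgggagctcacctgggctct
KIF15, chr3:44761729-44761793, plus strand: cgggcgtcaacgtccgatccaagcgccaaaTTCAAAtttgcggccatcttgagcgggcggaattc
The matches are at positions -22, -24 and -44 in RAD51AP1, PRIM1 and CDC25A, and at -55 and -35 in KIF23 and KIF15. Among genes that fell, the CHR letters were in 16 of 19 spindle promoters (84.211%), in 23 of 40 kinetochore promoters (57.5%) and in 0 of 46 replication promoters, against 9.785% of all promoters available. On the same count, the E2F letters were in 17 of 46 replication promoters (36.957%), against 5.867% of all. The CCAAT letters were in 57.895% of spindle, 47.5% of kinetochore and 41.304% of replication promoters, against 19.186% of all. In the promoters of all genes that fell, the CHR, E2F and CCAAT letters had shares of 11.771%, 8.274% and 21.183%. In those of all genes that rose, the shares were 8.764%, 4.696% and 19.387%. These shares describe sequence, and no binding was measured.

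**Figure D3:**
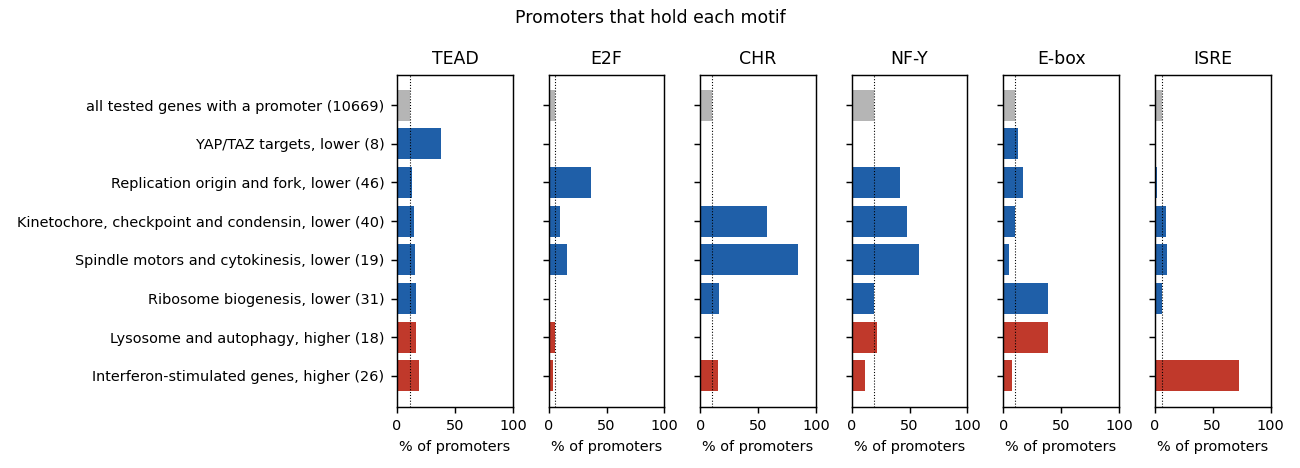
The bars give the percent of promoters, from 250 bases before to 50 after the start, that hold the letters of each motif, for the genes of a list that fell (blue) or rose (red) and for all 10669 tested genes with a promoter (grey, dotted line). The CHR letters are in 84.211% of promoters of spindle genes that fell against 9.785% of all, and the interferon-response letters (ISRE) in 73.077% of interferon-stimulated genes that rose against 6.121% of all.

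Histone genes moved in both directions. Over 19 of them, 8 rose and 4 fell, with a median of 0.04 that lay between -0.03 and 0.12 without single arrays. H2AX fell from 10.86, 10.98, 10.80 and 10.78 to 9.01, 8.95, 8.99 and 8.75, H2AZ2 by 1.12, H2AZ1 by 0.67 and the linker histone H1-4 by 1.02. In H2AX the groups were apart by more than their spread. H2BC5 rose by 3.68, H2BC4 by 2.68 and H4C8 by 2.11. These are replication-dependent histone genes in a clustered family, where probe sets can take signal from copies. UHRF1, which brings the maintenance methyltransferase to DNA, fell by 3.71 ± 0.09, the remodeller HELLS by 1.95 and the Polycomb methyltransferase EZH2 by 1.85. DNMT3A, a de novo methyltransferase, rose by 1.15, TET1 by 1.33 and JARID2 by 1.88, and over the whole list of DNA methylation and Polycomb genes 10 rose and 12 fell of 30 (median -0.09). At the nuclear envelope 26 of 37 genes fell (median -0.80). LMNB1 measured 11.34, 11.21, 11.10 and 11.20 in the controls and 7.28, 6.91, 7.15 and 7.12 with mix 2, and the pore proteins NUP54 and NDC1 fell by 2.98 and 2.69. LMNA (lamins A and C) rose by 0.60 ± 0.08 and SUN2 and SUN1, which link lamins to the cytoskeleton, by 0.43 and 0.39. SYNE1, the other gene of the list that rose (0.61), was not called as a mean of its probe sets (0.08). LMNB1 and LMNA thus lay on opposite sides of the controls in the same arrays.

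Ribosome production was lower at nearly every listed gene. Of 38 ribosome biogenesis genes 36 fell, with a median of -1.27. RRS1, a factor of the large subunit's assembly, measured 11.11, 11.23, 11.19 and 11.07 in the controls and 8.32, 8.15, 8.38 and 8.0 with mix 2, and fell by 2.94 ± 0.09; the arrays did not overlap. NOP16 and NIP7 fell by 2.36 and 2.18, though 1 further probe set of NOP16 moved up by 0.21. The gene that rose was POLR1D (0.15), whose call was lost when any of several single arrays was left out (limma adjusted p up to 0.132, without mix 2 replicate C). As a mean of its probe sets POLR1D was called lower (-0.15). In the RNA polymerase III list 3 of 19 rose and 11 fell, with a median of -0.35. POLR3G, a subunit found mainly in proliferating cells, fell by 4.39 ± 0.13, and its counterpart POLR3GL rose by 1.26, as did MAF1, a repressor of that polymerase (0.57 ± 0.10), and GTF3C6 (0.16).

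The ribosomal proteins themselves moved by smaller amounts. Of 51 cytosolic ribosomal protein genes 31 fell, but the median was only -0.16, and RPL36, RPL35 and FAU, which moved most, fell by 0.54, 0.44 and 0.40. RPS27 was the 1 that rose (0.11), and it lost its call in every fit without 1 control or mix 2 array. Mitochondrial ribosomal proteins moved further, with 58 of 75 lower (median -0.50), including MRPL3 (-1.46), MRPL9 (-1.44) and MRPL11 (-1.23). The 5 that rose were MRPL36 (0.79), MRPS21 (0.48), MRPS33 (0.41), MRPL49 (0.20) and MRPS6 (0.17), the last 2 not without mix 2 replicate B. Of 17 aminoacyl tRNA synthetases 10 fell and 4 rose (median -0.24). FARSB, FARSA and VARS1, which charge transfer RNAs with phenylalanine and valine, fell by 2.14, 1.18 and 1.49. The rises were CARS1 (0.27), AARS1 (0.20), WARS1 (0.20) and GARS1 (0.14); in the fits without 1 control or mix 2 array 1 to 4 of these were called, 1 without control replicate D or mix 2 replicate B. In the amino acid and stress response list 19 of 31 fell and 10 rose. The transporters SLC7A1 and SLC7A5, which import cationic and large neutral amino acids, fell by 1.76 ± 0.07 and 1.57 ± 0.08, and MTHFD2 of mitochondrial folate metabolism fell by 1.5. DDIT4, an inhibitor of mTORC1 signalling, rose by 1.45 ± 0.07, and XBP1 and DNAJB9 of the unfolded protein response rose by 2.26 and 1.54.

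MYC, a transcription factor that drives ribosome production, measured 11.13, 11.24, 11.28 and 11.20 in the controls and 10.31, 10.30, 10.40 and 10.10 with mix 2 (-0.94 ± 0.08, adjusted p = 4.82e-08). The arrays did not overlap. Of 11 genes of the network of MYC, MAX and MXD, 4 rose and 5 fell (median -0.05). Among its partners and antagonists, MXI1 rose by 0.94, MNT by 0.83, MLXIP by 1.51 and MLXIPL by 0.62, while MXD3, MGA, MLX and MYCN fell by 0.74, 0.41, 0.36 and 0.21. MYCN lost its call without mix 2 replicate D (-0.16), and MLX without shared probe sets (-0.03). The E-box letters CACGTG, which MYC and other factors bind, were in 12 of 31 promoters of ribosome biogenesis genes that fell (38.71%) and in 7 of 18 promoters of lysosome genes that rose (38.889%), against 10.048% of all. These lists moved in opposite directions. The letters were in 11.97% of the promoters of all genes that fell and in 9.593% of those of all genes that rose.

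Proteasome subunits fell slightly. 21 of 30 were lower and none was higher at this threshold, with a median of -0.28; PSMD10 fell by 1.26 and PSMA4 by 1.02. Of 46 respiratory chain genes 18 rose and 13 fell (median 0.10), shares close to those of all genes. ATP5MC1, a subunit of the membrane ring of ATP synthase, and CYC1 (cytochrome c1) fell by 1.31 and 1.09, and NDUFA1 and NDUFB5 of complex I rose by 0.48 and 0.52.

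Lysosomal genes were mostly higher. 23 of 32 genes in the list of lysosomes and autophagy were higher and 4 were lower, with a median of 0.59. The proteases CTSB (cathepsin B) and TPP1 rose by 1.55 ± 0.06 and 1.53 ± 0.07, and WIPI1, which acts in forming autophagosomes, rose from 9.38, 9.31, 9.08 and 9.11 to 11.29, 10.96, 11.11 and 11.44. WIPI1 levels of the groups did not overlap. The 4 that fell were LAMP2, a lysosomal membrane protein (-1.18), the proton pump subunit ATP6V1A (-0.96), the calcium channel MCOLN1 (-0.93) and ATG7 (-0.29). In the sterol list 14 of 28 rose and 5 fell (median 0.18), with HMGCS1 of the mevalonate pathway at 1.27, SCD (stearoyl-CoA desaturase) at 1.11 and TM7SF2 at 1.87, while ACAT2, SQLE, STARD4, INSIG2 and FDPS fell by 0.89, 0.44, 0.33, 0.27 and 0.18. Among 15 genes of iron handling 6 rose and 5 fell (median -0.06). The transferrin receptor TFRC fell by 1.11, the importer SLC11A2 by 2.27, NCOA4 by 1.27, STEAP1 by 0.95 and the ferritin chain FTL by 0.56, and the exporter SLC40A1 (ferroportin) rose by 2.67, with HFE at 0.91 and the ferrireductase STEAP3 at 1.54.

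Among 38 genes that answer to low oxygen 16 rose and 11 fell (median 0.03), close to the background of 36.7% and 31.9%. NDRG1 rose by 1.15 ± 0.07, the glucose transporter SLC2A3 by 2.61 and the carbonic anhydrase CA12 by 3.41. ADM (adrenomedullin), PFKFB2 and HILPDA fell by 1.14, 1.00 and 0.95.

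Interferon-stimulated genes were mostly higher with mix 2 than in the controls, which had also received an siRNA. Of 37 tested, 34 rose and 2 fell, with a median of 1.04. IFI27 measured 6.39, 6.63, 6.45 and 6.42 in the controls and 9.21, 9.28, 9.24 and 9.08 with mix 2. TRIM22, an antiviral ubiquitin ligase, measured 6.56, 6.40, 6.24 and 6.38 in the controls and 9.39, 9.63, 9.45 and 9.29 with mix 2. In both, all mix 2 arrays exceeded all control arrays. GBP2, a GTPase active against microbes within cells, rose by 3.68 ± 0.06 (adjusted p = 1.04e-14). GBP1 and IFIT5 were the 2 that fell, by 1.00 and 0.98; the other probe sets of GBP1 fell by 0.81 and 1.13, and that of IFIT5 by 0.68. GBP1 and GBP2 thus lay on opposite sides of the controls.

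Genes that sense nucleic acids were also mostly higher. 21 of 30 genes of nucleic acid sensing and interferon signalling rose and 3 fell, with a median of 0.32. STING1, the adaptor of cytosolic DNA sensing, rose from 6.75, 6.48, 6.58 and 6.68 to 7.93, 7.90, 8.12 and 7.70, and IRF9, which binds DNA in the interferon-activated complex, by 1.72 ± 0.06. The groups were apart for STING1. IFIH1 (MDA5), a sensor of double-stranded RNA, rose by 1.75 ± 0.10. The 3 that fell were the interferon receptor chain IFNAR1 (-0.75) and the feedback inhibitors SOCS1 (-0.86) and SOCS3 (-0.95).

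The interferon-response letters GAAANNGAA, in which N is any base, were searched on both strands. They are in capitals in IFI27 and IFIH1, which rose, and in IFIT5, which fell, shown to set the directions beside the motif.
IFI27, chr14:94110599-94110679, plus strand: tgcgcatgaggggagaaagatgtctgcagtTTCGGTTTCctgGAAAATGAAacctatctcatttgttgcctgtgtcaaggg
IFIH1, chr2:162318685-162318878, minus strand: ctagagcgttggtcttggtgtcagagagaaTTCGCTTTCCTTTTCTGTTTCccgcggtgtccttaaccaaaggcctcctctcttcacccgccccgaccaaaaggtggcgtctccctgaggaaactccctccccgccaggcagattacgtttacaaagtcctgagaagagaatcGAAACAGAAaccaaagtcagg
IFIT5, chr10:89414494-89414573, plus strand: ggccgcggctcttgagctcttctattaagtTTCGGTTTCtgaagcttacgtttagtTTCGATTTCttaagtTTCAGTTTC
IFI27 holds 2 copies, IFIH1 holds 4 that partly overlap and IFIT5 holds 3, so IFIT5 carried the letters and fell. The letters were in 19 of 26 promoters of interferon-stimulated genes that rose (73.077%), against 6.121% of all promoters available. They were in 6.68% of the promoters of all genes that rose and in 6.17% of those of all genes that fell.

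Antigen presentation genes were mostly higher. 17 of 19 class I genes were higher (median 0.92), including NLRC5, the transactivator of class I genes (1.53 ± 0.10), and the immunoproteasome subunits PSMB9 (1.17) and PSMB10 (1.15). TAP2, a subunit of the peptide transporter, was the 1 that fell, from 10.44, 10.45, 10.44 and 10.37 to 8.32, 8.26, 8.33 and 8.12, and its further probe sets fell by 1.63 and 1.27. The TAP2 groups did not overlap. Class II genes were higher in 10 of 14 cases (median 0.86): HLA-DMA rose by 2.38 ± 0.08, HLA-DRA by 2.32 ± 0.07 and HLA-DPA1 by 2.27. RFXAP, a subunit of the factor that binds class II promoters, fell by 0.98, and CIITA, their transactivator, did not pass the test at 0.23. HLA genes are near-identical copies, and probe sets can share signal among them. 13 of the 19 class I genes were lower with mix 2 than with mix 1, and none was higher, where the background was 25% and 28.7%.

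Of 17 cytokines and chemokines 6 rose and 5 fell (median 0.06). IL11, a cytokine of the interleukin 6 family, fell from 10.46, 10.50, 10.23 and 10.34 to 7.45, 7.36, 7.24 and 6.91 (-3.14 ± 0.11), LIF of the same family by 1.01, IL24 by 0.88 and the chemokines CXCL2 and CXCL3 by 0.39 and 0.37. The call of CXCL2 was lost as a mean of its probe sets (-0.12). CSF1, the growth factor of macrophages, rose from 9.05, 9.19, 8.86 and 8.89 to 11.56, 11.41, 11.59 and 11.53, TNFSF10 (TRAIL) by 1.03 and IL6 by 0.76. For IL11 and CSF1 the arrays of the groups did not overlap. In the NF-kB list 7 of 18 rose and 3 fell (median 0.14). NFKBIA, an inhibitor and target of the pathway, rose by 0.61, ICAM1 by 1.59 and the kinase IKBKB by 0.76, while NFKB1, TNFAIP3 and CHUK fell by 1.20, 1.04 and 0.60.

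Genes of secretory epithelium held the highest median of the lists described here. 13 of 19 tested genes rose and none fell at this threshold, with a median of 1.78. AGR2, a protein disulfide isomerase of mucus-producing cells, measured 9.17, 9.19, 9.03 and 9.11 in the controls and 13.42, 13.33, 13.41 and 13.44 with mix 2. CST1 (cystatin SN) measured 5.19, 5.64, 5.05 and 5.44 in the controls, with a mean below the filter, and 9.83, 9.79, 9.81 and 9.59 with mix 2. TFF3, a trefoil peptide, measured 6.73, 6.74, 6.70 and 6.63 in the controls and 10.53, 10.54, 10.58 and 10.50 with mix 2. In all 3 genes the mix 2 arrays lay several log2 units above the controls. SPDEF (1.34) and CREB3L1 (1.77), transcription factors of secretory cells, and MUC1 (1.91) rose with them, while MUC5AC, MUC5B, MUC20, PIGR, SLPI and WFDC2 did not pass the test, at -0.16 to 0.17. MUC5AC was called lower without mix 2 replicate B (-0.22) and higher as a mean of its probe sets (0.30), and WFDC2 was called higher without control replicate C (0.27). The other listed genes of this kind, 7 of 26, including FOXA1 and AGR3, did not pass the filter.

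Of 15 keratins and epithelial factors 7 rose and 4 fell; the median was 0.25, and 0.13 without mix 2 replicate D or control replicate B. KRT15 rose by 1.17, the epithelial factor ELF3 by 1.21 ± 0.08 and the receptor ERBB3 by 1.27, and KLF5 and GRHL1, factors of epithelial genes, fell by 1.15 and 0.58. KRT7 and KRT80 fell by 0.50 and 0.22, and KRT7 was not called as a mean of its probe sets (-0.14). At tight junctions 7 of 19 rose and 4 fell (median 0.07, and 0.13 without mix 2 replicate D or control replicate C). CLDN7 rose by 1.04, CLDN2 by 1.46 and CGNL1 (paracingulin) by 4.42, and CLDN12, OCLN (occludin), CLDN1 and CLDN23 fell by 1.86, 1.28, 1.08 and 0.82. CDH1 (E-cadherin) stayed below the filter, at 3.98 in the controls and 4.17 with mix 2. Of 14 mesenchymal genes 9 rose and 3 fell (median 0.77): TCF4 by 2.08 ± 0.07, FBN1 (fibrillin) by 1.70 and CDH11 (a cadherin of mesenchymal cells) by 1.57. SNAI2 (Slug), a repressor of epithelial genes, fell by 1.35 ± 0.07, ZEB1 by 0.27 and CD44 by 0.29.

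In the lists of integrins, collagens and proteases more genes rose than fell. 10 of 18 integrin genes rose and 1 fell (median 0.51), with ITGA1, a collagen receptor, going from 5.94, 5.76, 5.94 and 5.84 to 8.92, 8.83, 8.98 and 9.11 and ITGB5 rising by 1.90 ± 0.06. ITGA1 arrays did not overlap between the groups. ITGB2 fell by 1.58. 12 of 18 collagen genes rose and 2 fell (median 0.45), led by COL6A3 (3.33 ± 0.06), COL4A5 (2.78) and COL6A1 (2.50), and COL12A1 and COL8A1 fell by 1.69 and 0.21. The further probe sets of COL6A1 moved by 0.61, 0.43, 0.085 and -0.02, and those at 0.085 and -0.02 were not called. Among 10 laminin genes 5 rose and 2 fell, with a median of 0.20 that was -0.01 without shared probe sets. LAMA4, LAMB2, LAMA5, LAMC1 and HSPG2 rose by 2.33, 1.02, 0.66, 0.53 and 0.21, with the call of HSPG2 lost in 4 of 8 fits without 1 control or mix 2 array, and LAMB3 and LAMB1 fell by 1.48 and 0.79. In the plasminogen and metalloprotease list 10 of 17 rose (median 0.70): PLAT (tissue plasminogen activator) by 1.87 ± 0.08, and the inhibitors TIMP3 and TIMP4 by 1.77 and 2.62. PLAU, the urokinase activator, was the 1 that fell, by 1.70 ± 0.07. Of 32 genes of actin and focal adhesions 17 rose and 11 fell (median 0.17), and the 3 largest falls were those of the formins DIAPH3 and DIAPH2, by 1.77 and 1.64, and of CNN2 (calponin), by 0.55.

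In the TGF-beta list 17 of 27 rose (median 0.44), and FST, TGFBR1, SMAD3 and BMP6 fell. Its latent binding protein LTBP1 measured 7.76, 7.65, 7.43 and 7.40 in the controls and 11.43, 11.35, 11.39 and 11.37 with mix 2, the receptor TGFBR2 rose by 1.44 and the activin subunit gene INHBB by 1.42, whereas FST (follistatin), which binds activin, fell by 1.00 ± 0.09. TGFBR1, the other receptor chain, fell by 0.66, but without probe sets shared between transcripts its change was 0.18 and did not pass the test, and 1 further probe set of the signal transducer SMAD3 moved up by 0.25. LTBP1 was high in all mix 2 arrays, with no overlap. Of 26 Wnt genes 14 rose and 7 fell (median 0.31). SFRP1 (a secreted antagonist) rose by 1.67, the coreceptor LRP5 by 2.70 and WNT2B by 3.51; DKK1, another secreted antagonist, fell by 2.11 ± 0.07, with LEF1 (-1.18) and ZNRF3 (-0.93). In the Notch list 5 of 17 rose and 4 fell, below the shares of all genes; the median was 0.02, and 0.07 without mix 2 replicate D. RBPJ, MAML2, HES1, MAML1 and HEY1 rose by 0.50, 0.79, 0.85, 0.31 and 0.31, and HES4, NOTCH1, NRARP and NOTCH2 fell by 1.10, 0.79, 0.57 and 0.46.

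Among growth factor receptors, ERBB4 measured 3.74, 3.50, 4.25 and 3.48 in the controls and 7.48, 7.52, 7.35 and 7.03 with mix 2, a rise of 3.6 ± 0.17. Its control mean lay below the filter, which it passed through arrays given YAP/TAZ siRNA. The gap between the groups is therefore not independent of that filter. Of 11 genes of these receptors and their ligands 9 rose (median 0.37). The ligand EREG (epiregulin) rose by 1.18, and HBEGF, another ligand of the family, was the 1 that fell, by 1.39 ± 0.08. In the list of MAPK feedback genes 6 of 16 rose and 6 fell (median 0.20), the phosphatase DUSP4 rising by 0.71 and DUSP1, DUSP7 and DUSP10 falling by 1.55, 1.38 and 1.07, and SPRED2 and SPRY1 rose by 1.01 and 1.31. In the AP-1 and early gene list 10 of 21 fell and 4 rose (median -0.18): FOSL1, an AP-1 subunit that acts with YAP at many enhancers, by 3.03 ± 0.10 and MAFF by 1.30. JUND, KLF4, BATF3 and IER3 rose by 0.89, 1.37, 0.85 and 0.59. In the IGF list 9 of 15 rose (median 0.51), with the binding proteins IGFBP6 and IGFBP4 at 1.35 and 1.48, and IGFBP3 and the insulin receptor INSR fell by 1.13 and 0.90.

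Among 22 p53 targets 12 fell and 7 rose (median -0.32), with TP53INP1 (1.74), TP53I3 (2.63) and GDF15 (2.70) higher and MDM2 (-2.15), GADD45B (-1.83) and AEN (-1.79) lower. Of 16 genes of the BCL2 family 5 rose and 7 fell; the median was -0.02 and lay between -0.05 and 0.01 without single arrays. The 5 that rose were the pro-apoptotic members BAK1, BID, BMF and BAD, by 0.72, 0.47, 1.67 and 0.41, and BCL2L2, by 0.42. The 3 largest of the 7 falls were those of MCL1, which opposes apoptosis (-1.63 ± 0.05), BCL2L13 (-0.85) and BCL2L12 (-0.69).

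Genes of the primary cilium were mostly higher. Cilia are antenna-like organelles built on the centriole, usually in cells out of the division cycle. 34 of 46 genes rose and 6 fell, with a median of 0.80 against 0.03 for all genes. IFT27 of the transport trains measured 6.49, 6.18, 6.29 and 6.27 in the controls and 8.24, 8.36, 8.54 and 8.28 with mix 2, BBS1 of the BBSome rose by 2.29 ± 0.11 and DYNC2LI1 of the return motor by 2.88 ± 0.06. The IFT27 groups did not overlap. Among those that fell were the motor KIF3B (-1.42), SPAG1 (-0.63) and CEP290 of the transition zone (-0.55). 24 of the 46 were higher with mix 2 than with mix 1 and 9 were lower. Over all genes tested, 28.7% were higher and 25% lower between the mixes. No cilia were counted in these cultures.

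**Figure D4:**
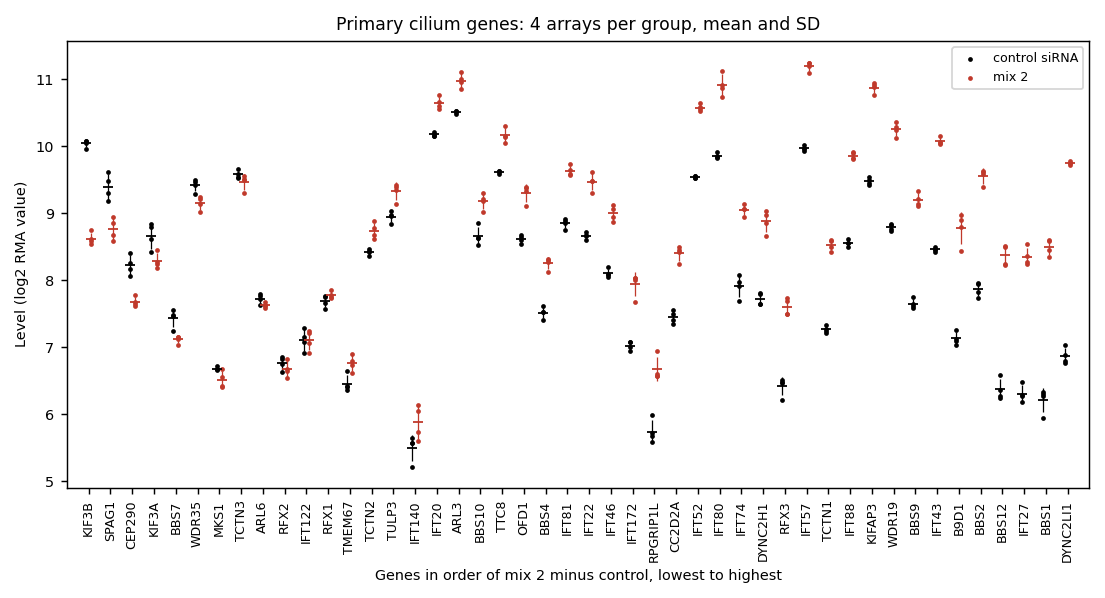
The y axis is the RMA level in log2 of each tested gene of the primary cilium list, in order of its change along the x axis; points are single arrays of control siRNA (black) and mix 2 (red), with the mean and SD of 4 arrays. With mix 2, 34 of the 46 genes lie higher and 6 lower past the adjusted p threshold of 0.05, and the groups of DYNC2LI1, at the right end, lie 2.88 apart.

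**Figure D5:**
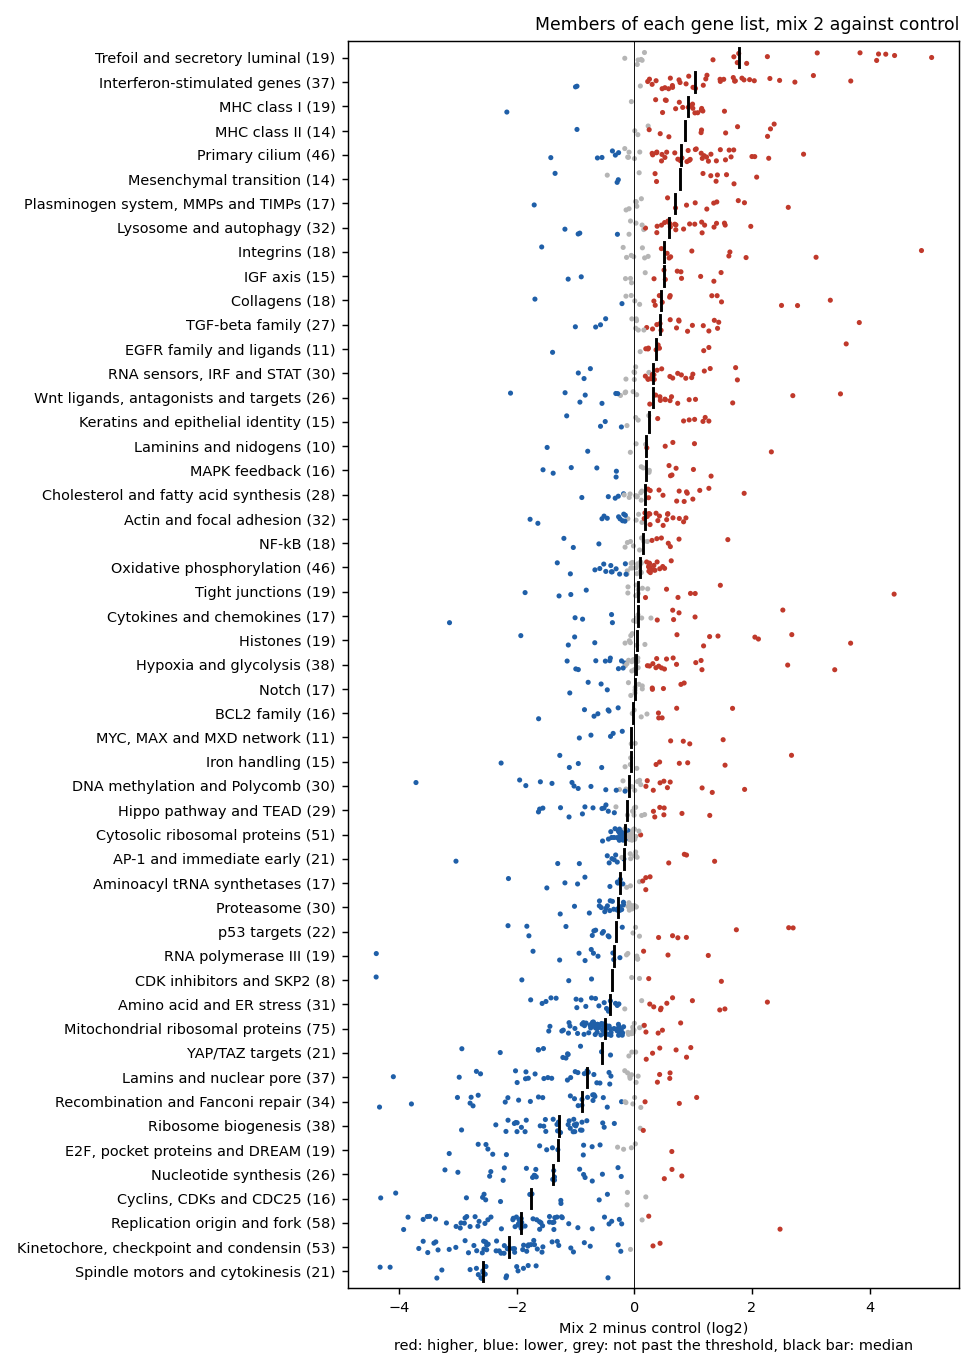
The x axis is the log2 change, mix 2 minus control siRNA, and each line holds the tested genes of 1 list (their number in brackets), coloured by call, with the median as a black bar. Spindle, kinetochore and replication genes lie lowest, with medians of -2.57, -2.13 and -1.92, and secretory genes highest, at 1.78.

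Some genes were near background in 1 group only. There were 232 genes whose control mean was under the filter and that rose. A further 106 had a mix 2 mean under it and fell. The filter was on the mean of all 12 arrays, so these genes passed it through other arrays, in some cases also those of mix 1. Their gaps are therefore not independent of it. The largest of the first kind, beside CST1 and CGNL1, were VAC14-AS1, SPOCK3, C9orf152, LYZ, HOPX, JAKMIP2, HPGD and SERPIND1. ERBB4, WNT2B, SLC14A1, H2BC4, H4C8 and CD14 were also of that kind, with control means of 3.74, 4.32, 3.13, 4.93, 5.30 and 5.15. HPGD, which inactivates prostaglandins, measured 5.39, 5.11, 5.23 and 5.42 in the controls and 9.30, 9.43, 9.51 and 9.40 with mix 2. HOPX, a homeodomain protein that binds no DNA, measured 4.15, 4.10, 4.38 and 4.51 in the controls and 8.57, 8.25, 8.58 and 8.43 with mix 2. Mix 2 arrays were high in both genes. The largest of the second kind were C4orf46, POLR3G, AFG2A, SKA1, ARHGAP11A, GJA3, ORC1, ZNF850, ALMS1-IT1 and ZGRF1; SKA1 measured 8.0, 8.19, 7.91 and 7.96 in the controls and 4.92, 3.68, 4.48 and 4.32 with mix 2. The SKA1 arrays of mix 2 all lay below all control arrays, which the choice of these genes required.

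Mix 2 and mix 1 differed from each other in 7097 genes, 53.7% of those tested, 3794 higher and 3303 lower with mix 2. Differences were ranked only among genes that were also called against the controls, so genes moved by mix 1 alone were left out. In that ranking HOPX had the largest positive difference, 3.43 (limma adjusted p = 3.73e-12). Mix 1 replicates measured 4.94, 5.07, 5.02 and 5.07, against the mix 2 values given above. HOPX lay below the filter in the controls and with mix 1, and passed it only through the mix 2 arrays. That difference is therefore not independent of the filter. CEMIP, a hyaluronan-degrading protein, was 2.62 higher with mix 2 than with mix 1 and MPC2, a mitochondrial pyruvate carrier, 2.53 higher. In the same ranking ELOVL7 was also among the 5 largest positive differences. With mix 2 it lay only 0.15 above the controls, a call lost in most fits without 1 control or mix 2 array. GPC6, FAM3C, PRRG4, TMTC3 and OSTM1 were lower with mix 2 by 3.54, 3.50, 3.49, 3.20 and 3.13. GPC6, a cell surface proteoglycan, measured 9.14, 9.0, 8.93 and 9.0 in mix 1 and 5.42, 5.52, 5.79 and 5.17 in mix 2 replicates A to D, against 8.70, 8.66, 8.59 and 8.67 in the controls. FAM3C measured 12.11, 12.14, 11.76 and 11.95 with mix 1, 8.39, 8.50, 8.43 and 8.63 with mix 2 and 11.23, 11.07, 11.01 and 11.10 in the controls. The mix 2 arrays stood apart from both other groups in FAM3C. Both mixes were set against the same controls, so no overlap of their changes with them is given.

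Zinc finger genes and solute carriers, 2 large families, lay near the background. Of 368 zinc finger genes 126 rose and 112 fell (median 0.03), with ZNF658, ZNF436 and ZNF91 rising by 1.57, 1.71 and 2.13 and ZNF367, ZNF850 and ZNF239 falling by 2.93, 2.86 and 2.24. Of 217 solute carriers 73 rose and 65 fell (median 0.05, and 0.02 without mix 2 replicate D). The urea transporter SLC14A1, the glucose transporter SLC2A12 and SLC44A5 rose by 3.16, 3.08 and 2.96, and SLC36A4 and the mitochondrial carrier SLC25A15 fell by 2.65 and 2.38.

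The markers of the labelled line and of other cells were checked in the same arrays. Of 6 markers present in MDA-MB-231, EGFR rose by 0.24, AXL and CD44 fell by 0.41 and 0.29, and CAV1 (-0.15), VIM and KRT18 did not pass the test. CAV1 was called lower without mix 2 replicate D (-0.17), and CD44 was not called as a mean of its probe sets (-0.07). VIM (vimentin) and KRT18 measured 14.29 and 12.88 in the controls and 14.37 and 12.91 with mix 2, although the mean of all VIM probe sets changed by -0.52. Of 6 markers low in this line, PGR (progesterone receptor), CDH1 and FOXA1 lay below the filter in the controls, at 3.56, 3.98 and 4.63, while ESR1 (estrogen receptor), ERBB2 and GATA3 were above it, at 6.31, 7.76 and 8.20. ERBB2 rose by 0.20, a call lost without control replicate D (0.16) and as a mean of its probe sets (0.03), and ESR1 (-0.13) and GATA3 (0.07) did not pass the test. Of leukocyte, endothelial and fibroblast markers PTPRC (CD45), at 4.04 and 4.47, and CDH5 (VE-cadherin), at 3.97 and 3.94, lay below the filter in both groups. LYZ, CD3D, CD14, PECAM1, ROBO4, COL1A1 and PDGFRB rose by 4.22, 1.31, 1.24, 1.34, 2.19, 1.48 and 0.88. CD3E, CD79A, ITGAM, VWF, ENG, CLDN5, ESAM and THY1 passed the filter but not the test, at -0.19 to 0.12. The summed log2 level of all leukocyte markers ranged from 58.9 to 60.4 in the controls and from 65.8 to 67.0 with mix 2, that of endothelial markers from 58.3 to 59.8 and from 62.1 to 62.9, and that of fibroblast markers from 47.0 to 48.9 and from 53.4 to 53.9. These sums moved with the rises of immune, matrix and secretory genes above, and their part in those results was not tested. Within the sums the changes were uneven: LYZ, ROBO4 and LUM rose most in their lists, by 4.22, 2.19 and 2.22. LUM and COL3A1 (1.06) did not pass the filter, nor did TIE1 and POSTN, which changed by -0.30 and -0.31. Of 13 commonly used reference genes, SDHA, B2M and YWHAZ rose by 0.27, 0.48 and 0.15, the last with a limma adjusted p of 0.0438 that lay between 0.0516 and 0.113 in the fits without 1 array that lost the call, and TBP, HPRT1, TFRC, IPO8 and POLR2A fell by 0.84, 0.57, 1.11, 0.15 and 0.69. GAPDH and PPIA did not pass the test, at -0.04 and 0.03.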

How the data were processed

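Total RNA of MDA-MB-231 cells was measured on Affymetrix HG-U133 Plus 2.0 arrays. The deposited values are log2 intensities made by RMA, per the submitters' processing notes. The sources used here do not give the RMA version or its settings. RMA gives all arrays 1 distribution. No detection calls or scanner values were used.

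Probe sets were named through the platform annotation, with symbols updated to RefSeq: of 54675 probe sets, 41097 had 1 symbol, 1801 several and 11777 none. Per gene, the probe set with the highest mean over all 12 arrays was taken, and genes above the 40th percentile of means (5.46 log2) were kept, 13227 of 19775. These carry no depth; the number of arrays limits precision. For 4600 genes the probe set can match several transcripts (suffix _s_at or _x_at).

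limma 3.58.1 (R 4.3.3) was fitted with 3 group means to all 12 arrays, with eBayes and Benjamini-Hochberg adjustment over all genes, at a threshold of 0.05. Array measures were compared by a two-sided exact permutation test (scipy 1.17.1). The fit was tested on simulated data. Named genes are YAP1, WWTR1, CCN1, CCN2, ANKRD1 and MYC, the markers, up to 3 largest called changes in each direction of a list, the 15 largest rises and falls among genes above the filter in both groups, the 10 largest among genes below it in 1 group (arrays not overlapping in both cases), and the 5 largest differences from mix 1 each way; others (such as LATS1 and list members that did not pass the test) were chosen after their values were seen. The differences from mix 1 were ranked only among genes called both against the controls and between the mixes. The members and gene lists were chosen with earlier results of these data known. Replicates are biological replicates per the labels; p-values measure the spread between these cultures. Promoters are RefSeq's, GRCh38.p14, for 10669 of the 13227 genes. Alternatives tried were other filters, probe set rules, centring, fits, a replicate block and leaving out each array.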

Additional observations from a re-analysis of the deposited data

Results flagged for a closer look

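In 47 of the 773 groups of 4 arrays behind the genes named above (6.08%), 1 array lay so far from the other 3 that its gap exceeded Dixon's critical share of the group's range, which chance does in about 1 in 20 groups. Many of these gaps are small in log2 units, and the other 3 arrays then lay very close together. Of the 47, 24 were in mix 2, of which 20 were replicate D, and 23 were in the controls.

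Mix 2 replicate D stood apart in BID at 8.93 (others 9.22 to 9.25), COL6A1 at 9.87 (others 9.97 to 9.99) and CST1 at 9.59 (others 9.79 to 9.83). The same replicate held DDIT4 at 11.88 (others 12.06 to 12.07), GATA3 at 8.07 (others 8.31 to 8.34) and GDF15 at 9.06 (others 9.42 to 9.48). Further values of that array were IGFBP3 at 9.21 (others 9.50 to 9.52), IGFBP6 at 9.98 (others 10.29 to 10.34) and KRT18 at 12.71 (others 12.96 to 12.98). It also held LAMB2 at 8.5 (others 9.27 to 9.28), MCL1 at 10.67 (others 10.83 to 10.85) and MPC2 at 11.45 (others 11.52 to 11.53). Mix 2 replicate D stood apart in NFKBIA at 10.17 (others 10.49 to 10.54), POLD4 at 9.61 (others 10.00 to 10.08) and PSMB10 at 10.12 (others 10.49 to 10.54). The same replicate held SLC44A5 at 10.43 (others 10.24 to 10.26), SNAI2 at 8.23 (others 8.43 to 8.46) and SUN1 at 11.76 (others 11.41 to 11.45). Further values of that array were TEAD2 at 7.25 (others 7.48 to 7.51) and ZNF436 at 8.69 (others 8.82 to 8.84). The other mix 2 arrays that stood apart were CCN2 in replicate B at 10.28 (others 10.40 to 10.42), IFNAR1 in replicate C at 7.21 (others 7.44 to 7.47), NDUFB5 in replicate B at 12.01 (others 12.12 to 12.14) and SLC40A1 in replicate C at 9.75 (others 9.85 to 9.86).

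Among the controls, single arrays stood apart in ACAT2 in replicate B at 11.15 (others 11.09 to 11.10), ANKRD1 in replicate B at 12.36 (others 12.27 to 12.28) and AXL in replicate D at 13.16 (others 13.26 to 13.27). Control values of this kind were also BBS1 in replicate D at 5.95 (others 6.28 to 6.33), CDKN1A in replicate D at 9.0 (others 9.13 to 9.15) and CGNL1 in replicate C at 4.98 (others 5.21 to 5.25). The control arrays further held CHUK in replicate C at 9.81 (others 9.96 to 9.99), CKS1B in replicate A at 12.84 (others 12.91 to 12.92) and EGFR in replicate D at 11.61 (others 11.65 to 11.65). Other such values were HES4 in replicate C at 6.31 (others 6.41 to 6.43), HEY1 in replicate B at 6.45 (others 6.61 to 6.64) and HILPDA in replicate A at 8.73 (others 8.91 to 8.93). Among the controls, single arrays stood apart in IPO8 in replicate B at 10.47 (others 10.55 to 10.56), MPC2 in replicate C at 10.77 (others 10.85 to 10.86) and MYCN in replicate C at 5.83 (others 5.90 to 5.91). Control values of this kind were also NCAPH in replicate D at 10.37 (others 10.43 to 10.44), NIP7 in replicate C at 10.38 (others 10.61 to 10.63) and POLD4 in replicate B at 7.72 (others 7.33 to 7.39). The control arrays further held PRIM1 in replicate C at 9.90 (others 9.82 to 9.83), PSMB10 in replicate B at 9.43 (others 9.20 to 9.23) and SUN2 in replicate A at 8.20 (others 8.07 to 8.09). Other such values were TAP2 in replicate D at 10.37 (others 10.44 to 10.45) and TEAD1 in replicate B at 12.47 (others 12.51 to 12.51).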

How the results depend on the processing

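The number of called genes (9070) was 9623 of 19775 without the filter, 7877 of 9779 with a filter at the 60th percentile, 8857 with probe sets averaged per gene, 6899 of 10359 without shared probe sets, 8926 with arrays centred on their medians, 9178 with only these groups in the fit and 9055 with a trended, robust eBayes. Leaving out 1 array at a time gave 8759 to 9187 calls, 4644 to 4937 higher, 4040 to 4284 lower, 1172 to 1264 at least 2-fold higher, 1203 to 1264 at least 2-fold lower and 6669 to 7225 different between the mixes. Same-letter arrays of mix 2 and control had deviations correlating at 0.12, 0.03, 0.05 and 0.21. Those of mix 1 and control correlated at 0.37, 0.25, 0.41 and 0.34, and those of mix 2 and mix 1 at 0.27, -0.09, 0.20 and 0.19. Whether same-letter arrays shared a batch was not tested, and the main fit did not pair them. With the replicate letter as a block 9380 genes were called in the fit of 12 arrays and 9309 in the fit of these groups. Without it these counts were 9070 and 9178. Direction turned for NSL1 (-0.18), ORC4 (-0.59) and TGFBR1 (0.18) without shared probe sets, and for ORC4 (-0.17) and POLR1D (-0.15) as a mean of probe sets. Against the called genes, 82 turned with the mean of probe sets and 81 without shared ones. The median of the list of CDK inhibitors with SKP2 was -0.39 in the main fit and 0.86 without shared probe sets. That of laminins was 0.20 in the main fit and -0.01 without shared probe sets. Fewer genes were called at low signal: under 6 log2, 29.8% of genes were called. Their median absolute change was 0.125 with a median SE of 0.1005, against 0.33 and 0.0902 between 6 and 8 log2. 4 arrays per group limit the precision.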
